A study of Mus musculus with 4 samples.

Results

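Langerin, E-cadherin, LI-cadherin, EpCAM, DEC-205 and the catenins that bind classical cadherins were followed in dendritic cells grown from mouse bone marrow with floxed Rbpj alleles, with or without a cre; those with the cre are called Rbpj-deficient here. The set held 9 of the 19751 genes named on the array, each read by 1 of its 39429 probes, matched through the RefSeq accession of the probe. They were chosen by the measured difference between the genotypes, since Cd207, Cdh1 and Cdh17 were higher in the Rbpj-deficient cells. The difference between the genotypes is therefore given as a description for all 9, with no p-value, and nothing is read from how many passed a threshold.

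Expression was measured on 4 single-colour Agilent arrays, 2 for each genotype. Marrow of female C57BL/6 mice of 8 weeks was cultured for 6 days with GM-CSF at 20 ng/mL, and CD11c+ cells were isolated. Both groups carried floxed Rbpj alleles (Rbpj fl/fl). The control group, RFF, carried nothing further, and the RFF11 group also carried CD11c-cre, a recombinase driven by the promoter of Itgax, so that loss of Rbpj and presence of the cre cannot be told apart. RNA was pooled from 4 mice per group. No label states that the 2 arrays of a group came from separate pools, so every p-value below covers no more than array-to-array spread, part or all of which could be technical. In such bulk RNA, more cells of a type and more RNA per cell cannot be told apart.

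Levels are log2 processed signal minus the array's own 75th percentile over its 43020 gene spots, so a level of 0 is that percentile. Levels of different genes are not set against each other, since probes differ in how well they bind. Between 55.2% and 58.4% of spots were well above background, the scanner software's flag for a measurable spot. Rbpj, the DNA-binding partner of Notch receptors, read 2.69 and 2.61 on the RFF arrays and 1.37 and 1.44 on the RFF11 arrays. In RFF11 it fell by 1.25 (log2; limma, Benjamini-Hochberg adjusted p = 0.0278) to 0.421 of its RFF signal, and it stayed well above background on both RFF11 arrays, so Rbpj RNA was reduced and not absent. Itgax, the gene whose promoter drives the cre, was at 6.66 ± 0.04 and 6.55 ± 0.14 (SD, n = 2). All 9 dendritic cell markers on the array were well above background on all 4 arrays, and so were all 9 markers of macrophages and monocytes.

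Langerhans cells are the dendritic cells of the epidermis. They take up ligands through langerin, a C-type lectin that forms Birbeck granules, and they hold on to keratinocytes through E-cadherin, which binds another E-cadherin molecule on the neighbouring cell. Inside the cell the tail of a classical cadherin binds beta-catenin or plakoglobin, which bind alpha-catenin and through it actin, while p120-catenin keeps the cadherin at the membrane. Beta-catenin also acts in Wnt signalling, where it enters the nucleus as a coactivator.

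Langerin was more abundant in the Rbpj-deficient cells. The Cd207 probe gave processed signals of 309.6 and 311 on the RFF arrays and 727 and 882 on the RFF11 arrays. Its log2 levels were -2.15 and -2.19 in RFF and -0.99 and -0.71 in RFF11. Both RFF11 arrays lay above both RFF arrays, with a gap of 1.16 between the nearest arrays of the groups, and the RFF11 arrays differed more from each other (0.27) than the RFF arrays did (0.05). The mean went from -2.17 ± 0.03 to -0.85 ± 0.19 (SD, n = 2), a log2 difference of 1.32 (SE 0.11), or 2.50-fold. Clec4f, the lectin gene next to Cd207 in the mouse genome, was not well above background on any array, and Vax2, its neighbour on the other side, differed by 0.02 (SE 0.06).

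The endocytic receptor DEC-205, encoded by Ly75, was at the edge of detection. This receptor of dendritic cells, which carries ligands to the antigen-presenting pathway, read -5.76 and -5.93 on the RFF arrays and -5.21 and -5.70 on the RFF11 arrays. Only RFF11 replicate 1 was flagged well above background, so Ly75 did not enter the fit. The groups did not overlap, but the gap of 0.06 was smaller than the difference between the 2 RFF11 arrays (0.49). No fold is given, because at least 1 array of each group lay below the limit of measurement. The measured difference of 0.39 stood at 0.13 with normexp, described below, and between 0.15 and 0.64 without 1 array. Of the 2 genes beside Ly75, both C-type lectin genes, Pla2r1 was not well above background on any array and Cd302 was at -0.37 (SE 0.06, adjusted p = 0.0644).

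EpCAM, a homophilic adhesion protein found on epithelia and on Langerhans cells, was modestly higher. Epcam read -0.11 and -0.21 on the RFF arrays against 0.29 and 0.35 on the RFF11 arrays. The groups were separated by 0.40, while arrays of a group differed by 0.11 in RFF and 0.06 in RFF11. The mean went from -0.16 ± 0.08 to 0.32 ± 0.04 (SD, n = 2), a log2 difference of 0.48 (SE 0.07), or 1.40-fold.

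Promoter windows were taken from RefSeq on GRCm38.p6 for the 6 of these 9 genes that were matched, in 8 windows of 250 bases before to 50 bases after a start site. None was used for Cdh1, Cdh17 or Ctnna1. The 250 bases before the start are shown for Cd207 and Epcam, the genes higher in RFF11 that had a window, with motif matches in capitals. That of Cd207 lies at chr6:83677858-83678107 on the minus strand and that of Epcam at chr17:87635729-87635978 on the plus strand.
Cd207: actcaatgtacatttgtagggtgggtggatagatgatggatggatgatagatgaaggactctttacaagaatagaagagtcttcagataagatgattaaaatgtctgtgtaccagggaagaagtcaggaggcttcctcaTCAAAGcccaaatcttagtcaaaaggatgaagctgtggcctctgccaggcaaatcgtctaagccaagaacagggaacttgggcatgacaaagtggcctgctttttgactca
Epcam: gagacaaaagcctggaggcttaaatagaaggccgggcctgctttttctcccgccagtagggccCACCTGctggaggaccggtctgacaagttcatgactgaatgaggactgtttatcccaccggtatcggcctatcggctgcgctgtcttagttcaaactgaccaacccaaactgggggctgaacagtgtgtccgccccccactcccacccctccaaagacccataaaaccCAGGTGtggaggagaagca
The Cd207 window held 1 TCF/LEF core (CTTTGA on either strand), whose leftmost base lies 111 bases before the start, a motif present in 16.0% of 32851 promoter windows of 300 bases. The Epcam window held 2 E-boxes of the kind bound by Snail and Zeb repressors (CACCTG on either strand), with leftmost bases 187 and 19 bases before the start, a motif in 20.2% of windows. The RBPJ core TGGGAA, in 25.6% of windows, and its longer form GTGGGAA, which contains it and is in 6.38%, had no match in any of the 8 windows. A match is a string of letters and no measured site, and its absence says only that these letters are not in the window.

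E-cadherin was higher in the Rbpj-deficient cells, by less than langerin. Cdh1 read 2.79 and 2.70 on the RFF arrays and 3.43 and 3.40 on the RFF11 arrays. The groups were 0.61 apart at their nearest, against 0.09 between the RFF arrays and 0.02 between the RFF11 arrays. The mean went from 2.75 ± 0.07 to 3.42 ± 0.02 (SD, n = 2), a log2 difference of 0.67 (SE 0.06), or 1.59-fold.

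The Cdh1 probe is printed at 10 positions of each array, which gives the spread between spots within an array but not between arrays. Single spots ran from 2.59 to 2.89 over both RFF arrays and from 3.27 to 3.57 over both RFF11 arrays. The lowest RFF11 spot was thus brighter than the highest RFF spot. The SD between spots of an array was 0.07 to 0.09, and the difference at a given position ranged from 0.59 to 0.75 over the 10 positions. These spots share the RNA of their array and are no replicates of a genotype. Cdh3, the P-cadherin gene beside Cdh1 in the genome, was not well above background on any array, and Tango6 on the other side was at -0.12 (SE 0.06).

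**Figure D1:**
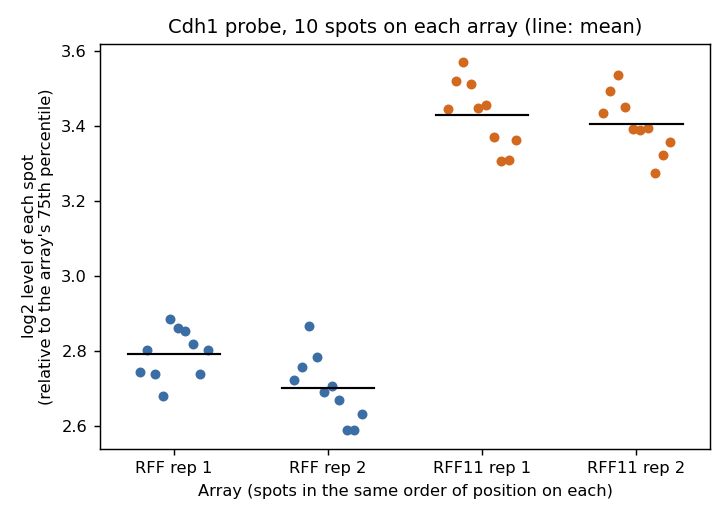
Log2 level of each of the 10 spots of the Cdh1 probe on the 4 arrays, relative to the array's 75th percentile, with the mean of each array as a line. All RFF11 spots, from 3.27 to 3.57, lie above all RFF spots, from 2.59 to 2.89.

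LI-cadherin was detected in the Rbpj-deficient cells alone. Cdh17, a cadherin of intestinal epithelium whose short tail does not bind catenins, read -6.57 and -6.46 on the RFF arrays, where it was not well above background, and -4.33 and -4.80 on the RFF11 arrays, where it was. The RFF11 arrays differed by 0.47, and the nearest arrays of the groups were 1.66 apart. The measured means were -6.52 ± 0.08 and -4.56 ± 0.33 (SD, n = 2), a difference of 1.95 (SE 0.18). Because the RFF values are below the limit of measurement, the fold is a bound. Cdh17 was at least 2.14-fold brighter in RFF11, counted from the higher, on each RFF array, of its own level and the lowest level flagged well above background. It passed the filter on dim probes only through the group in which it was high. Gem, the gene before Cdh17, was at 1.03 (SE 0.20, adjusted p = 0.0838), and Pdp1 after it at -0.32 (SE 0.10).

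**Figure D2:**
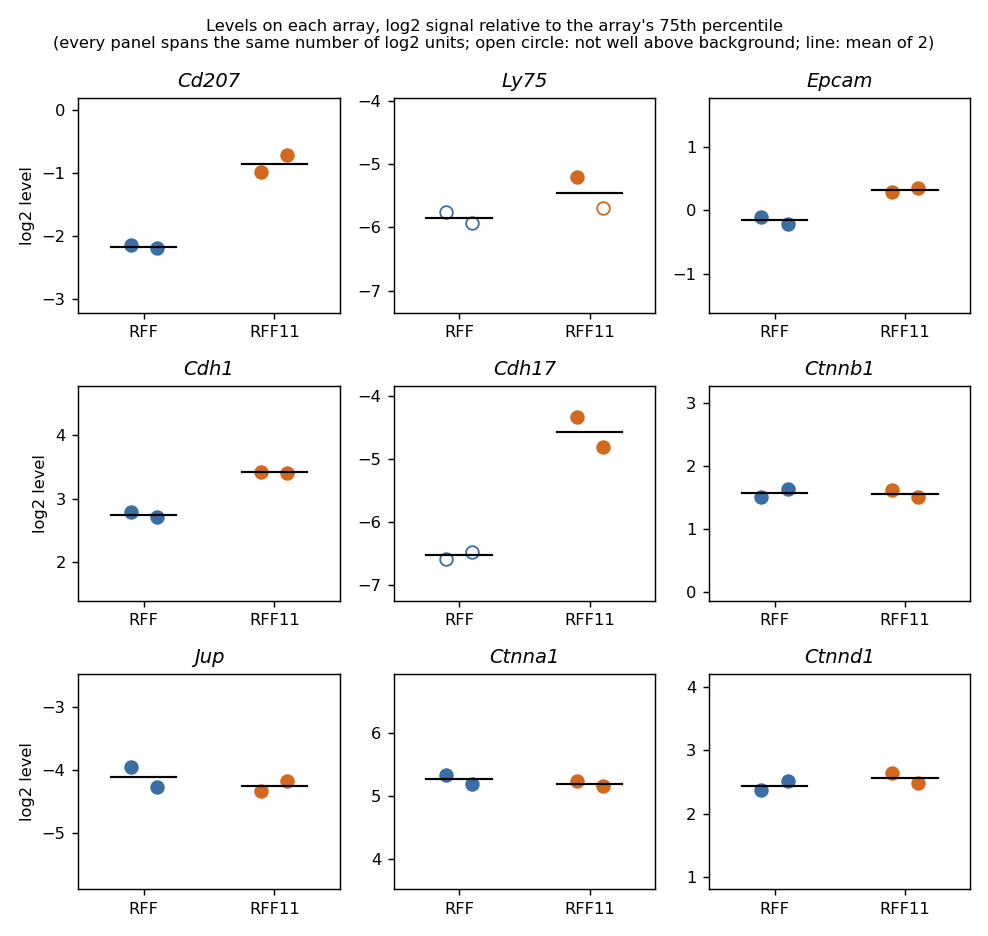
Log2 level of each gene on each array (relative to the array's 75th percentile) in RFF and RFF11, with lines at the mean of 2 arrays, open circles for arrays not well above background, and every panel spanning the same number of log2 units. Cd207, Epcam, Cdh1 and Cdh17 are separated between the groups, and the 4 catenin genes overlap.

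The catenins on which E-cadherin depends differed little between the genotypes. Beta-catenin, Ctnnb1, read 1.51 and 1.64 in RFF and 1.62 and 1.51 in RFF11, so that each RFF array had an RFF11 array close to it. Its mean was 1.57 ± 0.09 in RFF and 1.57 ± 0.08 in RFF11, a difference of -0.01 (SE 0.08). Plakoglobin, Jup, which can replace beta-catenin at the cadherin tail and is also part of desmosomes, read -3.95 and -4.27 in RFF and -4.34 and -4.17 in RFF11. The Jup arrays overlapped, and the difference of -0.15 had an SE of 0.13.

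Alpha-catenin and p120-catenin overlapped between the groups as well. Ctnna1, the link to actin, read 5.34 and 5.19 in RFF and 5.23 and 5.15 in RFF11, a difference of -0.07 (SE 0.08). Ctnnd1, the catenin that stabilises cadherins at the membrane, read 2.38 and 2.51 in RFF and 2.65 and 2.49 in RFF11, a difference of 0.13 (SE 0.09). The sign of some of these small differences depended on which arrays were used. Without 1 array, the difference of Ctnnb1 ranged from -0.07 to 0.06, that of Jup from -0.30 to 0.01 and that of Ctnna1 from -0.15 to 0.00, while that of Ctnnd1 stayed between 0.05 and 0.21. Over the other scalings and settings Ctnnb1 ranged from -0.04 to 0.03 and Ctnna1 from -0.11 to 0.00.

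Of the 9 genes, 8 entered the fit over 17973 genes, and 3 of them, the same Cd207, Cdh1 and Cdh17 that led to the listing, were past the threshold of 0.05, all higher. Being listed for this difference, they could be expected to pass, so nothing is read from these calls. Over all genes tested 1.88% were past it, 1.04% higher and 0.84% lower. These 17973 hold 12755 named genes, and the rest are targets without a symbol, each counted as a gene. For 4 of the 8 tested genes the arrays of the groups did not overlap, all 4 higher, as for 59.1% of all genes tested (26.8% higher and 32.3% lower). The 12 genes that adjoin these 9 in the genome and could be tested, out of 16 on the array, ranged from -1.02 to 1.03, and 0 passed, with an unadjusted p under 0.05 in limma for 4.

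Sizes depended on how dim signal was handled. With normexp, a background correction that adds 50 to each signal and so shrinks dim differences, Cdh17 stood at 0.65, Cd207 at 1.11, Epcam at 0.43 and Cdh1 at 0.67. Without 1 array, Cd207 ranged from 1.19 to 1.46, Epcam from 0.43 to 0.54, Cdh1 from 0.62 to 0.72 and Cdh17 from 1.72 to 2.19.

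**Figure D3:**
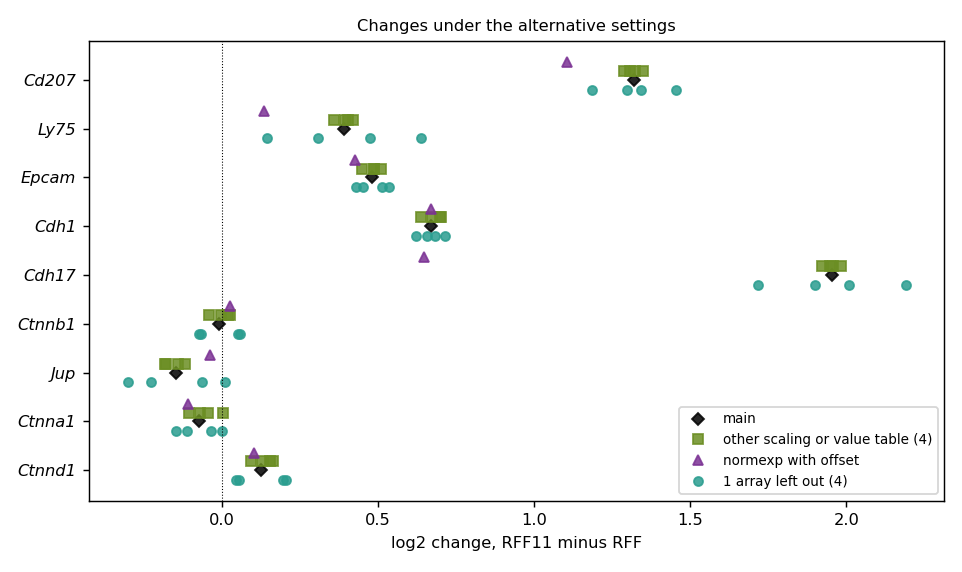
Log2 change of each gene (RFF11 minus RFF) with the settings of the text, under 4 other scalings or value sources, under normexp, and with each of the 4 arrays left out. Cd207, Epcam, Cdh1 and Cdh17 stay above 0 under each of these, and so do Ly75 and Ctnnd1. Where the arrays of the groups do not overlap, leaving out 1 array cannot change the sign. Cdh17 falls to 0.65 under normexp, and Ctnnb1, Jup and Ctnna1 lie on either side of 0.

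Among other cadherins, Cdh2 was lower in the Rbpj-deficient cells and measured in both groups. N-cadherin, Cdh2, which binds the same catenins as E-cadherin, read -0.94 and -0.93 on the RFF arrays and -2.00 and -1.81 on the RFF11 arrays. It fell by 0.97 log2 units (SE 0.09, adjusted p = 0.0379), or 1.96-fold, and its 2 probes stood at -0.97 and -0.95. Of 10 other classical cadherins 3 were tested, and Cdh2 was the one that passed. The list's median was 0.10, against -0.01 over all genes tested.

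Cdh16, the kidney cadherin most like Cdh17 in its domains, was the mirror image of Cdh17 in detection. It read -5.30 and -5.58 on the RFF arrays, where it was well above background, and -6.96 and -7.00 on the RFF11 arrays, where it was not. It was at least 1.33-fold brighter in RFF, with a measured difference of -1.54 (SE 0.11, adjusted p = 0.0330). It entered the fit only through the RFF arrays, and the difference and its p rest on RFF11 values below the limit of measurement. With normexp that difference was -0.30 and did not pass. Of 12 tested cadherins outside the classical type Cdh16 alone passed and 11 did not, with a median of 0.02. Among those that did not pass, Cdh23, a cadherin of inner ear hair cells singled out after its values were seen, was at least 1.65-fold brighter in RFF11 and not well above background in RFF (adjusted p = 0.0851). Like Cdh17, it entered only through the RFF11 arrays, and it passed with normexp (0.40, adjusted p = 0.0339) and with a trended and robust variance prior (adjusted p = 0.0373), over alternatives that reached an adjusted p of 0.344.

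A relative of the catenins rose. Ctnnd2, the delta-catenin of the p120 family best known from neurons, read -0.23 and -0.28 in RFF and 0.32 and 0.39 in RFF11. It rose by 0.61 (SE 0.06, adjusted p = 0.0417), or 1.53-fold, and its 2 probes stood at 0.61 and 0.63. The other 6 of 7 tested catenin-family genes did not pass, and the median was -0.01.

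Junction partners were mostly below the threshold. Of 25 tested adherens junction and actin linker genes, Pvr, a nectin-like adhesion receptor, rose from -1.88 ± 0.00 to -1.40 ± 0.00 (log2 difference 0.48, SE 0.05, adjusted p = 0.0450). Ptprf, a receptor tyrosine phosphatase found at cadherin junctions, fell from -4.15 ± 0.16 to -5.18 ± 0.10 (SD, n = 2; log2 difference -1.04, SE 0.11, adjusted p = 0.0434). With normexp Ptprf stood at -0.42 and did not pass, and under median scaling Pvr stood at 0.45 and did not pass. The median of the list was -0.03. Of 11 tested desmosome and tight junction genes 0 passed, 4 had an unadjusted p under 0.05 in limma, and 10 lay above 0, with a median of 0.21. Marveld2, a tight junction protein of tricellular contacts, was the farthest at 0.63 (SE 0.09, adjusted p = 0.0621).

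Partners of EpCAM and receptors of E-cadherin mostly did not pass. Cd81, a tetraspanin of the membrane domains in which EpCAM is found, read 4.22 on both RFF arrays and 3.60 and 3.58 on the RFF11 arrays. It fell by 0.63 (SE 0.05, adjusted p = 0.0379), and the other 7 of 8 tested genes of that list did not pass (median -0.01). Of the 8, 4 lay above 0 and 4 below, and 3 had an unadjusted p under 0.05 in limma. St14, singled out after its values were seen, lay farthest from 0 at 0.73 (SE 0.09, adjusted p = 0.0558). Of 2 tested genes among the receptors of E-cadherin and Cdh17, 0 passed and 1 had an unadjusted p under 0.05 in limma. Itgb1, an integrin chain, was at -0.31 (SE 0.06, adjusted p = 0.0810). Itgae, the integrin chain that binds E-cadherin, was not analysed here.

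Endocytic lectins other than langerin lay mostly lower without passing. Of 9 tested lectins of the mannose receptor family and related receptors, 0 passed, 5 had an unadjusted p under 0.05 in limma, and 2 lay above 0, with a median of -0.27. Cd209a, a mouse relative of DC-SIGN, was the farthest. It read 4.17 on both RFF arrays and 3.39 and 2.29 on the RFF11 arrays, so that the RFF11 arrays differed by more than 1 log2 unit, and its difference was -1.33 (SE 0.39, adjusted p = 0.159). Without 1 array that difference ranged from -1.89 to -0.78.

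Of the genes tied to Langerhans cell development, 8.33% passed, beside 1.88% of all genes tested. Of 24 tested, Ltc4s, which makes leukotriene C4, rose and Tgfbr3, a TGF-beta coreceptor, fell, and 22 did not pass, with a median of -0.02. Ltc4s read 2.64 and 2.61 in RFF and 3.52 on both RFF11 arrays, a difference of 0.89 (SE 0.05, adjusted p = 0.0322), or 1.85-fold. Tgfbr3 fell by 0.57 (SE 0.06, adjusted p = 0.0481), a call that was lost under 4 other scalings or value sources. The factors Runx3 and Id2 and the cytokine Tgfb1, all needed for Langerhans cells and named after their values were seen, stood at 0.43 (adjusted p = 0.0806), -0.39 (adjusted p = 0.0948) and -0.03 (adjusted p = 0.741). The receptor chains Tgfbr1 and Tgfbr2, named in the same way, stood at 0.49 (adjusted p = 0.106) and -0.05 (adjusted p = 0.677). Ahr, also named in this way, lay farthest from 0 of the 24 at 0.90 (SE 0.12, adjusted p = 0.0588). Smad7 stood at 0.43 (adjusted p = 0.0546). Of the list, 9 genes lay above 0 and 15 below, and 9 had an unadjusted p under 0.05 in limma.

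Beta-catenin's signalling partners and targets went both ways. Of 32 tested Wnt and beta-catenin signalling components only Wls, the carrier that brings Wnt proteins to the cell surface, passed. It read 1.66 and 1.65 in RFF and 1.15 on both RFF11 arrays, and fell by 0.50 (SE 0.05, adjusted p = 0.0434). The list ran from -0.52 to 0.54, with a median of -0.01. Of 9 tested beta-catenin target genes 0 passed and 5 had an unadjusted p under 0.05 in limma, with a range from -0.51 to 0.72 and a median of -0.04. Rnf43, a ligase that removes Wnt receptors, was the farthest at 0.72 (SE 0.09, adjusted p = 0.0569). It passed under 4 alternatives, normexp (adjusted p = 0.0197), scaling over detected probes (adjusted p = 0.0485), signal on all 4 arrays (adjusted p = 0.0459) and a trended and robust variance prior (adjusted p = 0.0121). Axin2, the target most often used as a readout, did not enter the fit. It was among 10 of the 20 listed targets that were not well above background on any array.

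Among 11 tested regulators of Cdh1, Klf5 rose and 10 did not pass, with a median of -0.02. Klf5, an epithelial transcription factor, read -4.69 and -5.10 in RFF and -3.14 and -3.19 in RFF11. It rose by 1.73 (SE 0.15, adjusted p = 0.0379), or 3.32-fold, and by 0.85 with normexp. Zeb1 and Zeb2, repressors of Cdh1 named after their values were seen, stood at 0.24 (adjusted p = 0.104) and -0.39 (adjusted p = 0.0826). The Snail and Twist genes were not well above background on any array and did not enter the fit. Counted once each over all these lists, 10 of 152 tested genes passed, or 6.58%, of which 4 were higher and 6 lower, beside 1.88% of all genes tested. Cdh16, among the lower ones, entered only through the group in which it was high. Every one of the 10 calls was lost without RFF11 replicate 1 and without RFF11 replicate 2. Of these 10, without RFF replicate 1 only Klf5 (1.94) kept its call, and without RFF replicate 2 only Klf5 (1.53) and Cdh16 (-1.68) did.

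**Figure D4:**
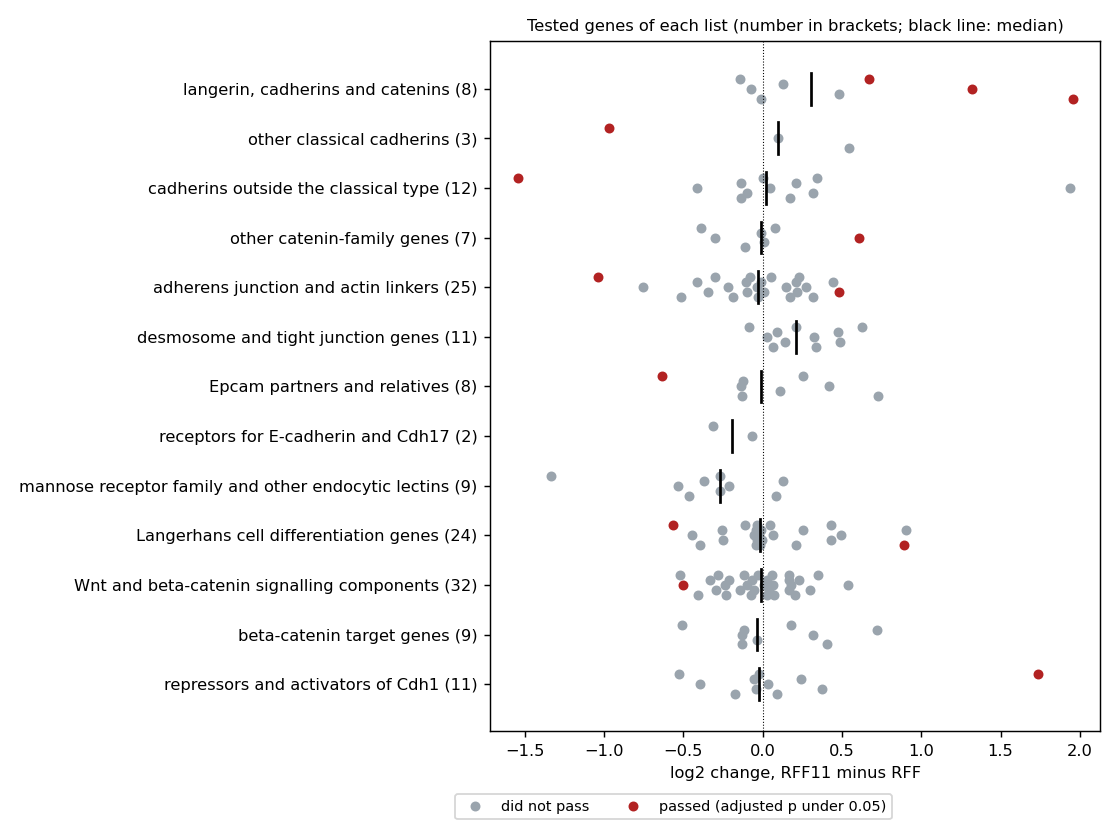
Log2 change (RFF11 minus RFF) of each tested gene in the 9-gene set and in 12 lists of related genes, with the median of each list as a black line and genes past the adjusted threshold in red. Medians of the lists lie between -0.27 and 0.21, and the red points of the cadherin lists (Cdh2, Cdh16) lie on the other side of 0 from Cdh1 and Cdh17. Red points of the 9-gene set are the genes that led to its listing, and nothing is read from their passing.

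The genes whose 4 array values lay closest to those of Cd207, after each gene was centred on its own mean, were Mefv and Tgfb3, with root mean square differences of 0.05 and 0.06 log2 units, and Tmem125. Those closest to Cdh1 were Gsdme (0.01), Echdc2 (0.02) and Ptk2b (0.03), out of 102 named genes within 0.1. Those closest to Cdh17 were Ptgis, Vgll1 and Wfdc9. For Cd207, 6 named genes lay within 0.1. Mefv was higher in RFF11 by 1.34 log2 units and Tgfb3 by 1.44, sizes that follow from picking genes for their likeness to Cd207. Tmem125, Vgll1 and Wfdc9, like Cdh17, were not well above background on either RFF array, so no distance or rank is read for them or for Cdh17.

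No epithelial cell marker passed the threshold. Of 15 on the array 6 were tested, 0 passed (unadjusted p under 0.05 in limma for 1), and their mean level was -2.83 and -2.90 on the RFF arrays and -3.01 and -2.92 on the RFF11 arrays. Krt5, Krt14, Cldn7, Esrp1 and Trp63 were well above background on all 4 arrays. Krt8, Krt18, Krt7, Cldn3, Elf3, Cdh3 and Dsp were not well above background on any array. Grhl2 and Krt19 were so on 1 array each, RFF11 replicate 2 and RFF11 replicate 1, and were not tested. Krt5, the farthest from 0 of the 6 tested, was at -0.25 (adjusted p = 0.221). Of 7 cDC1 markers on the array, a type of dendritic cell that can carry langerin and DEC-205, 6 were tested and 0 passed (unadjusted p under 0.05 in limma for 2), and Xcr1, its defining receptor, was not well above background on any array. Wdfy4 was the farthest at 0.33 (adjusted p = 0.176), and the mean level of the list was -0.13 and -0.07 in RFF and -0.06 and -0.05 in RFF11.

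Some markers of granulocyte lineages were higher in the RFF11 arrays, as were Cd207, Cdh1, Cdh17 and Epcam. Of 10 tested neutrophil markers 8 lay above 0 and 2 rose (20.0%, beside 1.88% of all genes tested), Elane and Mmp8 lay at -0.14, and the mean level of the 10 was -0.72 and -0.65 on the RFF arrays and -0.18 and -0.19 on the RFF11 arrays. Mpo, a granule enzyme, rose by 0.74 (adjusted p = 0.0378), the other being Ngp (0.54), and Retnlg was not well above background on any array. Of 7 tested mast cell and basophil markers all 7 lay above 0 and Hdc, which makes histamine, rose by 0.48 (adjusted p = 0.0477), or 14.3% of the list, while Kit and Gata2 overlapped between the groups. Their mean level was -2.50 and -2.35 in RFF and -1.82 and -1.84 in RFF11. The farthest from 0 were Mcpt8 (1.13, adjusted p = 0.0502), Prss34 (0.95, adjusted p = 0.0829) and Cpa3 (0.77, adjusted p = 0.0644). These genes did not pass. All were well above background, and their arrays did not overlap between the groups, as for 59.1% of all genes tested (26.8% higher). The defining markers Fcer1a, Ms4a2 and Cma1 were not well above background on any array. Mcpt1 was so on RFF replicate 2 alone and was not tested. It read lower in RFF11, by a difference of -0.85 that rests on values below the limit of measurement.

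Of 3 tested B lineage markers 0 passed (unadjusted p under 0.05 in limma for 3) and 2 lay above 0, with mean levels of -4.68 and -4.26 in RFF and -3.56 and -3.57 in RFF11. Blk, a kinase, was the farthest from 0 and entered only through the RFF11 arrays, reading -6.63 and -5.57 in RFF, where 1 of 2 arrays was well above background, and -3.53 and -3.69 in RFF11 (adjusted p = 0.0657). Vpreb1 was at -0.34 and Cd79b at 0.57, so most of the shift in the mean is that of Blk. The markers Pax5, Ebf1, Vpreb3 and Ms4a1 were not well above background on any array. Of 6 tested erythroid and megakaryocyte markers 0 passed (unadjusted p under 0.05 in limma for 3) and 4 lay above 0, with Itga2b at 0.82 (adjusted p = 0.0909). Gata1, Alas2 and Rhag were not well above background on any array, and the mean level was -1.95 and -1.93 in RFF and -1.90 and -1.68 in RFF11. Of 9 macrophage and monocyte markers Fcgr1 fell (-0.61, adjusted p = 0.0424), with mean levels of 3.92 and 4.03 in RFF and 3.89 and 3.80 in RFF11. Of 9 dendritic cell markers 0 passed (unadjusted p under 0.05 in limma for 3), with Ccr7 the farthest at -0.48 (adjusted p = 0.0931) and mean levels of 4.03 and 3.97 in RFF and 4.05 and 3.98 in RFF11. The part of these other cell types in the differences of Cd207, Epcam, Cdh1 and Cdh17 was not tested.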

How the data were processed

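Per the file headers, the authors read spot intensity with Agilent Feature Extraction 10.7.1.1, and the headers list fits of a spatial and a multiplicative trend. The deposited processed intensity was not scaled between arrays, and flags are those of the same software. The 4 arrays shared 1 slide, so position on it and genotype cannot be told apart. The authors' deposited table of log2 values, whose making is not given in the sources used here, matched the scanner values as log2 signal scaled per array and centred on each probe's median (Pearson r at least 0.9999 across probes, slopes near 1, column medians of 0.05, -0.03, -0.03 and 0.02, same direction). It served as an alternative.

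Labelled RNA amounted to 150 ng per array. Outlier spots (127 to 176 per array) were left out, 0 spots were saturated, spots of a probe were averaged, and a probe was kept where both arrays of either genotype were well above background. For a gene with several probes, that of highest mean was taken. The comparison used limma 3.58.1 in R 4.3.3 and Benjamini-Hochberg adjustment over 17973 genes, at a threshold of 0.05, without a replicate block. Each SE comes from the moderated fit, and the number of arrays limits precision. Normexp used the median signals in place of the mean signals planned. The procedure was tested on simulated data with normal noise drawn from the fit's own variance prior. Such data match the fit by construction and do not show how stable the calls are.

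Accessions were matched to RefSeq on GRCm38.p6 for names and gene order (26055 of 39429 probes received 1 symbol, 0 several and 13374 none). The array annotation is on mm9. Probes of these genes under other accessions are not named here.

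The 9 genes, lists and alternatives were chosen with earlier results of these data known. Named were the 9 genes, Rbpj, Itgax, up to 3 highest and 3 lowest genes past the threshold in each list (1 each in marker lists), otherwise the gene farthest from 0, and the 3 genes nearest in pattern to Cd207, Cdh1 and Cdh17. Genome neighbours, single markers (detected, undetected or against the list), Axin2, Itgae, Snail and Twist genes were named outside it. Alternatives were other scalings, filters, probe summaries, variance priors, leaving out arrays and a replicate block.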

Additional observations from a re-analysis of the deposited data

How the results depend on the processing

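With 2 arrays per genotype the counts of calls were unstable. Of 126 values of the log2 differences of the 9 genes under 14 alternatives, 124 moved by less than the spread between arrays. The 2 that moved by more were Cd207 (1.11) and Cdh17 (0.65) under normexp. Most of the 124 could not have moved by more. Filters, probe summary, variance prior and replicate block leave the difference of a gene with 1 probe unchanged. Leaving out 1 of 2 arrays cannot move it beyond that spread. Only the other scalings, the value table and normexp could. For 24 other named genes, 251 values under the alternatives kept their direction and side of the threshold, 70 were no longer past it, 13 came past it and 0 changed direction. Dim probes such as Cdh17 and Ly75 are limited by signal over background.

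Against 338 genes, 3 of the 9 genes, 10 list genes and 381 probes past the threshold, normexp gave 988 genes (499 higher and 489 lower, 298 shared), 29 list genes and 1103 probes. A trended and robust variance prior gave 1547 genes (694 higher and 853 lower, 318 shared), 44 list genes and 1825 probes. Requiring signal on all 4 arrays gave 16 list genes. Without a filter on dim probes limma called 0 genes, 0 of the 9 genes, 0 list genes and 0 probes (unadjusted p under 0.05 for 3654 genes and 4360 probes). Leaving out each array in turn gave 0 to 136 genes, 0 of the 9 genes, 0 to 2 list genes and 0 to 143 probes. A lone array was then assumed to vary like those of the other genotype. The cause, whether fewer arrays, more dim probes, the altered variance estimate or another, was not tested.

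With the replicate number as a replicate block limma called 0 genes, 0 of the 9 genes, 0 list genes and 0 probes (unadjusted p under 0.05 for 3677 genes and 4412 probes). Arrays of the same number did not deviate together (r = -0.05 across genes). With 2 arrays per group this is a single correlation for both pairs. No label states whether arrays of the same number share a culture or pool, so a pairing can be neither assumed nor excluded. Motif shares in the 250 bases before the start alone were 21.6% for TGGGAA, 5.42% for GTGGGAA, 17.2% for CACCTG and 13.8% for CTTTGA.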
